A study of Mus musculus with 6 samples.

Results

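Of the 47729 genes measured, 9 are described here, chosen by their symbols: the neutrophil genes S100a8, S100a9, Retnlg and Csf3r, and the acute phase genes Saa3, Lcn2, Hp, Orm1 and Serpina3n. RNA was sequenced from interscapular brown adipose tissue (BAT), the fat depot that burns fuel to make heat, of male wild type C57BL/6J mice that were fed from 6 to 10 weeks of age. The 3 HFD mice were given a high-fat diet with 45% of calories from fat, and the 3 LFD mice a low-fat laboratory diet. Both groups were otherwise untreated and housed singly at room temperature, and the labels number the mice of each diet from 1 to 3. The mice sequenced were those with the most, intermediate and least fat mass of each diet, and the sources used here do not say which number is which.

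Neutrophils are short-lived white blood cells that are made in the bone marrow, patrol the blood and enter inflamed tissue. S100a8 and S100a9 encode the subunits of calprotectin, a calcium- and metal-binding protein that fills the neutrophil cytoplasm. Acute phase proteins are secreted mainly by the liver during infection or injury under the control of interleukin 6 and interleukin 1, and adipocytes and macrophages also make several of them, among them haptoglobin, serum amyloid A3 and lipocalin 2.

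None of the 9 genes passed the test between the diets. Serpina3n, which encodes a secreted serine protease inhibitor, came nearest, with 22.5 to 53.9 TPM (transcript level corrected for gene length and scaled to a fixed total per mouse) in HFD and 131 to 324 TPM in LFD. It was the 1 gene of the 9 with no overlap between the diets, where on the TPM scale 11.6% of all tested genes were lower and 1.65% higher in HFD without overlap (9.23% and 6.72% on the log2 scale of counts per library size, log2 CPM). The 4 neutrophil genes, Saa3 and Lcn2 varied more between mice of the same diet than between the diets, with HFD replicate 3 high and LFD replicate 1 low in each. Hp and Orm1 had lower mean levels in HFD with overlapping values.

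All 9 genes passed the filter on low counts and were tested with edgeR's quasi-likelihood test among 17668 genes. A gene was called where the adjusted p was below 0.01 and the log2 fold change exceeded 1.5 in size, and 0 of the 9 genes met both limits, beside 0 of all genes tested (0%). At an unadjusted p under 0.05 there was 1 of the 9 (Serpina3n, lower in HFD), where 10.5% of all tested genes passed that limit in either direction and 6.62% were lower in HFD. DESeq2 called 412 genes at the same thresholds, 2.06% of those it tested, and none of the 9. The samples are separate mice, and the p-values measure the spread between 3 mice of each diet.

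**Figure D1:**
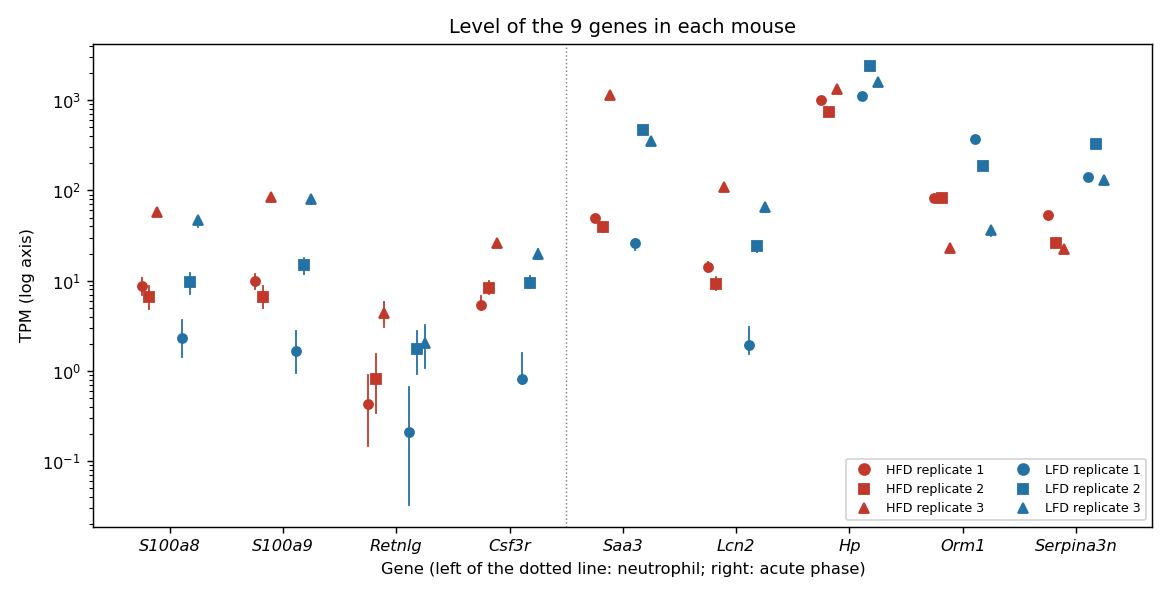
TPM (log axis) of the 9 genes in each of the 6 mice, with HFD in red, LFD in blue and the marker shape giving the replicate number. Vertical lines are the 95% intervals that RSEM gave for its quantification and do not include the spread between mice. The Serpina3n values of HFD, at most 53.9, all lie below those of LFD, at least 131, while the diets overlap for the other 8 genes.

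By mean TPM over the 6 mice, the order was Hp (1357), Saa3 (344), Orm1 (131), Serpina3n (116), Lcn2 (37.4), S100a9 (32.9), S100a8 (22.05), Csf3r (11.6) and Retnlg (1.61). The ranges over mice overlapped for every pair of neighbours in this order. The highest mouse exceeded the lowest by 56.4 times in Lcn2 TPM, by 50.04 times in S100a9 and by 43.5 times in Saa3, but by 3.24 times in Hp. Hp was therefore the most abundant of the 9 and the least variable.

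Of the calprotectin genes, S100a8 (GRCm38 chr3:90668978-90670035, plus strand) was at 8.80, 6.66 and 58.4 TPM in the HFD mice, given here and later in the order of replicates 1, 2 and 3, and at 2.31, 9.55 and 46.5 TPM in the LFD mice. Replicate 3 was the highest of its diet in both groups, and the diets overlapped. Taken as HFD over LFD, the log2 fold change of S100a8 was 0.72 ± 1.04 (standard error), with an edgeR adjusted p of 0.895.

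S100a9 (chr3:90692632-90695721, minus strand) lies 22.6 kb from S100a8. It had 10.0, 6.59 and 83.6 TPM in HFD and 1.67, 15.1 and 80.6 TPM in LFD. The mean was 33.4 ± 43.5 TPM (SD, n = 3) in HFD and 32.4 ± 42.2 TPM (SD, n = 3) in LFD, so the spread within each diet was wider than the difference. Its log2 fold change was 0.43 ± 1.23, with an edgeR adjusted p of 0.953. The proteins of S100a8 and S100a9 join as a heterodimer, and the ratio of their TPM (S100a9 over S100a8) stayed between 0.723 and 1.73 in the 6 mice, while each gene alone spanned at least 25.3 times.

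Csf3r (chr4:126024550-126044440, plus strand) encodes the receptor for granulocyte colony-stimulating factor, the main growth signal of neutrophils. It had 5.43, 8.26 and 26.1 TPM in HFD and 0.810, 9.35 and 19.7 TPM in LFD. The same mice stood at the extremes as for S100a8, and the log2 fold change was 0.70 ± 0.81 with an edgeR adjusted p of 0.852. Csf3, the gene of its ligand, had between 0 and 5 counts in a mouse and was not tested.

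Retnlg (chr16:48872621-48874496, plus strand) encodes a secreted resistin-like protein found in neutrophils and bone marrow. Few reads were counted for it, with 5, 7 and 41 counts in HFD and 2, 13 and 13 counts in LFD. Its levels were 0.430, 0.820 and 4.42 TPM in HFD and 0.210, 1.75 and 2.04 TPM in LFD. Retnlg had a log2 fold change of 0.77 ± 0.89, with an edgeR adjusted p of 0.855.

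The median log2 fold change of the 4 neutrophil genes was 0.71, beside -0.05 over all tested genes. Leaving out HFD replicate 3 turned all 4 and gave a median of -0.58, and leaving out LFD replicate 3 gave 1.77. Without LFD replicate 1 the median was 0.21. The direction of the neutrophil genes thus rested on single mice, and in LFD replicate 2 each of the 4 genes had a higher TPM than in HFD replicate 2.

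**Figure D2:**
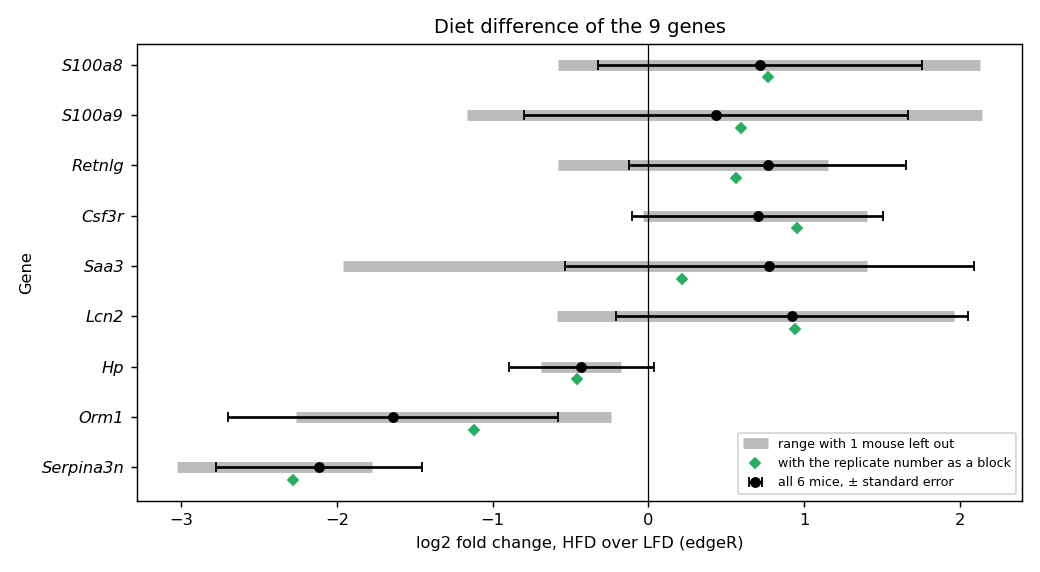
Log2 fold change, HFD over LFD, of the 9 genes from edgeR, with all 6 mice (black, ± standard error), with the replicate number as a block (green) and the range when 1 mouse is left out (grey). The grey range crosses 0 for the 4 neutrophil genes, Saa3 and Lcn2, and stays below 0 for Hp, Orm1 and Serpina3n.

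Not every neutrophil gene could be seen in this tissue. Of 37 other neutrophil genes in the list used here, 19 passed the filter on low counts and 12 stayed below 10 counts in every mouse, 1 of them at 0 in all. Ly6g, the usual surface marker of mouse neutrophils, had 0, 0 and 5 counts in HFD and 0, 3 and 2 counts in LFD. Of the granule genes, which are transcribed mainly in the bone marrow before neutrophils are released, Ngp and Camp had at most 2 and 1 counts and Elane at most 17, whereas Prtn3 reached 136 counts in LFD replicate 2 and between 6 and 21 in the other mice. These 4 were named after their values were seen. Cxcr2, the chemokine receptor that draws neutrophils into tissue, was detected in every mouse, with 1.38, 3.86 and 7.23 TPM in HFD and 1.16, 4.37 and 9.95 TPM in LFD. Its log2 fold change was 0.00 ± 0.62, with an edgeR adjusted p of 1.00. S100a8 and S100a9 can also be transcribed in monocytes, and Csf3r in monocytes and macrophages, so that their RNA alone does not count neutrophils. In bulk tissue, fewer cells of a type and less RNA per cell cannot be told apart.

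Among the 19 other neutrophil genes tested, 0 were called by edgeR, and at an unadjusted p under 0.05 there were 3 higher and 2 lower in HFD, beside 3.86% and 6.62% of all tested genes. Named here after their values were seen, the 3 were Cd177, Clec4e and Fpr2, and the 2 were Il1r2, an interleukin 1 decoy receptor, and Prtn3, a granule protease. The median log2 fold change of these 19 genes was 1.28, with 16 above 0. Fpr2, a formyl peptide receptor that also binds serum amyloid A, had 1.67, 4.05 and 31.2 TPM in HFD and 0.190, 2.51 and 3.14 TPM in LFD, and its diets overlapped in TPM though not in log2 CPM. Its edgeR log2 fold change was 2.89 ± 1.16, with an adjusted p of 0.462.

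Markers of other white blood cells varied between the same mice. The summed TPM of 12 macrophage genes was 1978, 2466 and 4044 in HFD and 631, 2719 and 4552 in LFD. The sum of 10 monocyte genes was 226, 585 and 1170 in HFD and 144, 587 and 702 in LFD. Beside these, the sum of the 4 neutrophil genes was 24.7, 22.3 and 172 in HFD and 5, 35.7 and 149 in LFD. LFD replicate 1 was the lowest mouse and replicate 3 the highest of its diet in all these sums. Their part in the levels of the neutrophil genes was not tested.

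**Figure D3:**
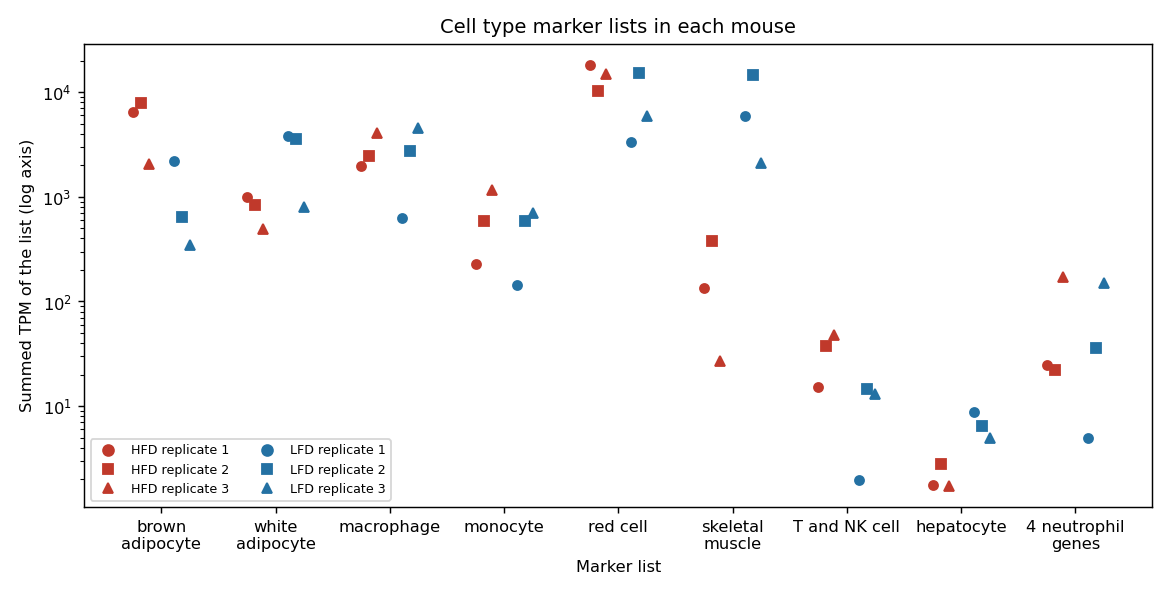
Summed TPM (log axis) of marker gene lists for 8 cell types and of the 4 neutrophil genes, in each of the 6 mice (HFD red, LFD blue, marker shape by replicate number). The macrophage, monocyte and neutrophil sums are lowest in LFD replicate 1, while the skeletal muscle sum of each LFD mouse, at least 2109, exceeds that of every HFD mouse, at most 382.

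By the likeness measure described below, Lcn2 was the acute phase gene most like each of the 4 neutrophil genes in its levels across the mice. Saa3 followed, then Hp, Serpina3n and Orm1. Among all tested genes Lcn2 ranked 1 in nearness to S100a9 and 6 to S100a8, but 647 to Csf3r and 5484 to Retnlg. Saa3 lay at 0.96 to 1.15 from the neutrophil genes and Hp at 1.08 to 1.78, so these ranges overlapped. Saa3 (chr7:46711998-46715700, minus strand) encodes serum amyloid A3, the member of its family made mainly outside the liver. It had 49.9, 39.8 and 1130 TPM in HFD and 26.0, 466 and 351 TPM in LFD. HFD replicate 3 had 43.5 times the level of LFD replicate 1, and the diets overlapped. By edgeR, Saa3 had a log2 fold change of 0.78 ± 1.32 with an adjusted p of 0.915, while its mean log2 CPM was 5.74 in HFD and 5.82 in LFD, which is the opposite direction. Without HFD replicate 3 the fold change was -1.96. The liver-type genes Saa1 and Saa2, which lie 24.8 kb and 36.1 kb away, reached at most 52 and 28 counts, and were named after their values were seen.

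Lcn2 (chr2:32384633-32388252, minus strand) encodes lipocalin 2, which binds bacterial iron carriers and is made by neutrophils, macrophages and adipocytes. It had 14.2, 9.28 and 110 TPM in HFD and 1.95, 24.0 and 65.0 TPM in LFD. Lcn2 had a log2 fold change of 0.92 ± 1.13, with an edgeR adjusted p of 0.864, which was -0.59 without HFD replicate 3.

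Lcn2, S100a9 and S100a8 put the 6 mice in the same order by TPM. Likeness was measured as the root mean square difference of log2 CPM over the 6 mice, after each gene was centred on its own mean. Among all 17668 tested genes, Lcn2 was the nearest to S100a9 and S100a9 the nearest to Lcn2, with a difference of 0.31. S100a8 lay at 0.42 from S100a9 and 0.49 from Lcn2. The next nearest gene to Lcn2 was Slpi, a secreted leukocyte protease inhibitor, at 0.36. Csf3r was nearest to Socs3, an inhibitor of cytokine receptor signalling, at 0.23, and S100a8 to Ctgf at 0.38. Saa3 had no gene nearer than 0.67 (Capn11), and Lcn2 followed at 0.89. These values describe 6 mice that differed in library depth and in the marker sums of cell types, and carry no test.

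**Figure D4:**
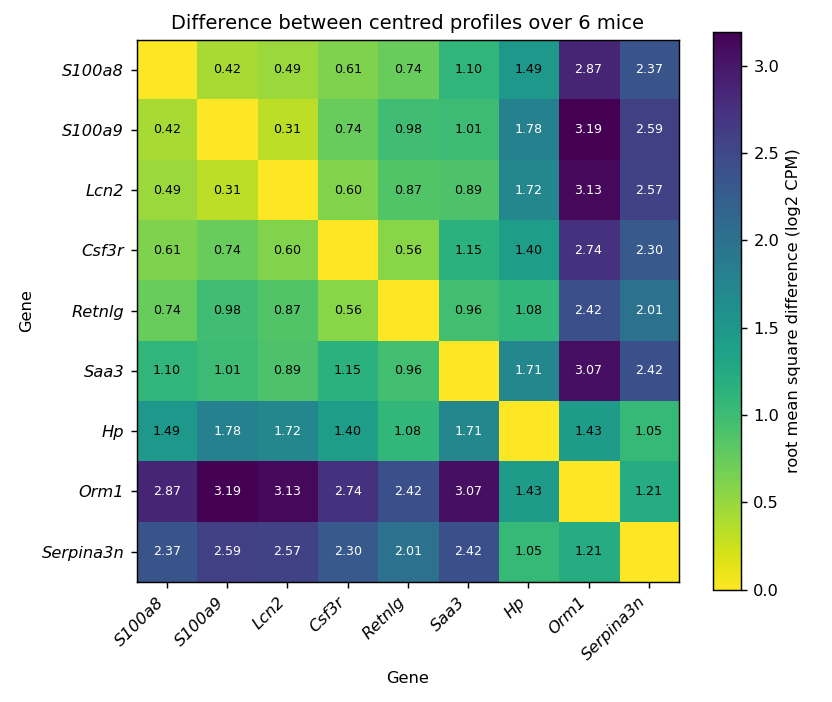
Root mean square difference of centred log2 CPM between each pair of the 9 genes over the 6 mice, where 0 is an identical profile. S100a8, S100a9, Lcn2, Csf3r and Retnlg lie at most 0.98 apart. That largest value is between Retnlg and S100a9, and S100a9 ranks only 8182 of 17667 genes in nearness to Retnlg. Hp lies 1.08 from Retnlg. Orm1 and Serpina3n lie at least 2.01 from the 5 genes named first and from Saa3.

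Upstream sequences were searched because some of the 9 genes had similar profiles and others did not. The RefSeq promoter table (GRCm38.p6) held entries for 7 of the 9 genes, and Hp and Orm1 had none. The 250 bases before the annotated start were searched on both strands for 9 patterns, and those described were picked after the matches had been seen. TTGCNNAA is the core of sites for C/EBP factors, which act in myeloid cells and in the acute phase response. It was found in S100a9, Lcn2, Saa3 and Retnlg, and in 9.56% of 32851 promoters. S100a8 and Csf3r, nearer in profile to S100a9 and Lcn2 than Saa3 was, had no match. An NF-kB pattern of 10 letters was found in Serpina3n and in 1.41% of promoters, and there it overlapped a match to a looser NF-kB pattern of the same length (2 of the 7 genes, 17.6% of promoters). TTNNGNAAT, a variant C/EBP pattern, was found in 2 genes, S100a9 and Serpina3n, and in 10.2% of promoters. The other patterns were TTCNNNGAA for STAT factors (0 of 7 genes, 7.02% of promoters), TATAAA (1 gene, 12.4%), TGANTCA (0 genes, 6.75%), GAGGAA (3 genes, 23.3%) and ACANNNTGT (2 genes, 5.84%). A match of letters is not a shown binding site. The sequences of S100a9, Saa3 and Serpina3n are shown as examples. Capitals mark the TTGCNNAA match on either strand or the first NF-kB match. Each sequence reads 5′ to 3′ along the gene's strand.
S100a9 (chr3:90695722-90695971, minus strand): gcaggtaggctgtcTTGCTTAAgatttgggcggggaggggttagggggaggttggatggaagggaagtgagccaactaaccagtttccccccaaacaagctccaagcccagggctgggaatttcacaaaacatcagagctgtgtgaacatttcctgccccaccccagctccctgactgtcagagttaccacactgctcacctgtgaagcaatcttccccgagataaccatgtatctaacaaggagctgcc
Saa3 (chr7:46715677-46715926, minus strand): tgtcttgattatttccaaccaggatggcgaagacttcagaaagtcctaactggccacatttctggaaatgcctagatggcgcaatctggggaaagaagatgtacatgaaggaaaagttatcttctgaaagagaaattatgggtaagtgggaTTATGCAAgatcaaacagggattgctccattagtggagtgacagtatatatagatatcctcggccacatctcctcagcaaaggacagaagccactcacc
Serpina3n (chr12:104406458-104406707, plus strand): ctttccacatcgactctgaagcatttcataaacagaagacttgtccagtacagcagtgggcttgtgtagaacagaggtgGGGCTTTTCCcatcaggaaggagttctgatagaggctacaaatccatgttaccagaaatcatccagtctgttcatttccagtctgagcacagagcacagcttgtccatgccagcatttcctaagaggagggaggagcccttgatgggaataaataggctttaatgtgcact
The capitals begin 236 bases before the start in S100a9, 99 bases before it in Saa3 (where the match is on the reverse strand) and 171 bases before it in Serpina3n. The last 24 bases of the Saa3 sequence lie inside the longest gene model of GENCODE M21, and the whole Lcn2 window does, so that it is not shown. The last 93 bases of the S100a8 window and the last 109 of the Csf3r window also lie inside their gene models.

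Serpina3n (chr12:104406729-104414329, plus strand) had 53.9, 26.3 and 22.5 TPM in HFD and 141, 324 and 131 TPM in LFD. The highest HFD mouse was below the lowest LFD mouse, both in TPM and in log2 CPM, where 9.23% of all tested genes were likewise lower in HFD with no overlap. The mean was 34.3 ± 17.1 TPM (SD, n = 3) in HFD and 199 ± 109 TPM (SD, n = 3) in LFD. The log2 fold change was -2.12 ± 0.66, or 0.231 times the LFD level, with an unadjusted p of 0.0157. The edgeR adjusted p was 0.342, so the difference did not pass the threshold. DESeq2 gave an adjusted p of 0.0450, which passes 0.05 but not 0.01, and 2.67% of the genes it tested were lower in HFD at 0.05. With any 1 mouse left out, the log2 fold change of Serpina3n lay between -3.03 and -1.77.

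Markers of other cell types differed between the mice as well. The summed TPM of 15 skeletal muscle genes was 134, 382 and 26.9 in HFD and 5877, 14415 and 2109 in LFD, with no overlap. That of 11 white adipocyte genes was 995, 830 and 496 in HFD and 3833, 3546 and 792 in LFD, with an overlap. That of 12 brown adipocyte genes was 6381, 7913 and 2035 in HFD and 2215, 645 and 346 in LFD, again with an overlap. Ucp1, which defines brown adipocytes, was at 2728, 4021 and 796 TPM in HFD but at 443, 11.0 and 76.0 TPM in LFD, so that the defining marker of the labelled tissue was low in LFD replicates 2 and 3. The sum of 12 T and NK cell genes was 15.4 to 48.2 in HFD and 1.99 to 14.7 in LFD, and that of 9 red cell genes 10235 to 18115 and 3299 to 15266. The part of these cells in the Serpina3n difference was not tested.

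The hepatocyte genes listed were at low levels. The summed TPM of 12 hepatocyte genes was 1.72 to 2.80 in HFD and 4.96 to 8.76 in LFD, with Alb, the albumin gene, at 0.0300 to 0.350 TPM in HFD and 1.45 to 6.70 TPM in LFD. The sum of this list was also higher in every LFD mouse than in any HFD mouse. The part of liver RNA in the levels of the acute phase genes was not tested.

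The neighbours of Serpina3n are close copies of it, among which reads can be hard to assign. The RSEM posterior SD of the Serpina3n count was at most 0.220% of the count, a measure of how far RSEM's assignment of reads could vary. Of the copies, named after their values were seen, Serpina3m, which lies 12.5 kb away, had 0.600, 0.160 and 0.260 TPM in HFD and 4.78, 10.3 and 4.28 TPM in LFD. Serpina3g, which lies 164.8 kb away, had 5.79, 11.9 and 33.9 TPM in HFD and 0.36, 2.83 and 5.06 TPM in LFD. The log2 fold change was -3.80 ± 0.79 for Serpina3m and 2.83 ± 0.83 for Serpina3g, opposite in sign, and neither passed the edgeR threshold, with adjusted p values of 0.177 and 0.314. Serpina3c, by mean TPM the most abundant of the listed copies (23.9), had a log2 fold change of -2.88 ± 1.29. Those of the other listed copies tested were -4.43 for Serpina3k, -0.99 for Serpina3i and 2.77 for Serpina3f. These copies were also named after their values were seen. The gene nearest to Serpina3n in profile was Pde11a, a cyclic nucleotide phosphodiesterase, at a difference of 0.16.

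Orm1 (chr4:63344560-63348163, plus strand) encodes orosomucoid 1, a plasma glycoprotein that binds drugs and lipids. It had 83.3, 81.6 and 23.2 TPM in HFD and 375, 188 and 36.6 TPM in LFD. In each pair of mice with the same replicate number the HFD mouse was the lower, with ratios of 0.222, 0.433 and 0.634, and replicate 3 was the lowest of its diet in both groups, the reverse of S100a8. Orm1 had a log2 fold change of -1.64 ± 1.06, with an edgeR adjusted p of 0.680, which was -0.24 without LFD replicate 1. In the edgeR fit blocked on replicate number the unadjusted p was 0.0295 and the adjusted p 0.224. That fit had 8.76% of all tested genes lower in HFD at an unadjusted p under 0.05. The copies Orm2 and Orm3, named after their values were seen, reached at most 5.73 and 12.8 TPM, and the posterior SD of the Orm1 count was at most 1.01% of the count. The gene nearest to Orm1 in profile was Pnpla3, which encodes a lipid droplet protein, at 0.19.

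Hp (chr8:109575128-109579172, minus strand) encodes haptoglobin, which captures free haemoglobin in plasma. It had 993, 741 and 1326 TPM in HFD and 1105, 2398 and 1578 TPM in LFD. The means were 1020 ± 294 and 1694 ± 655 TPM (SD, n = 3 each), and the diets overlapped. Its log2 fold change was -0.43 ± 0.47, with an edgeR adjusted p of 0.844. It was -0.17 without HFD replicate 2 and -0.69 without HFD replicate 1. In replicate 3 the HFD mouse was below the LFD mouse in TPM but above it in log2 CPM (10.29 against 10.19), so that the direction within that pair depended on the scale.

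The median log2 fold change of the 5 acute phase genes was -0.43, with 3 of the 5 below 0. Of 36 other acute phase genes, 20 were tested and 0 were called by edgeR. At an unadjusted p under 0.05 there were 4 higher and 6 lower in HFD, beside 3.86% and 6.62% of all tested genes. Named after their values were seen, the 4 were Il1rn, Itih4, Serpina3f and Serpina3g, with log2 fold changes of 2.77 to 3.57. The 6 were Cp, Agt, Serpina3k, Serpina3m, Mt1 and Mt2, with log2 fold changes of -4.43 to -0.88. The median log2 fold change of the 20 was -0.93, with 14 below 0. The 4 most abundant, complement C3, the metallothioneins Mt1 and Mt2, which bind zinc and copper, and Lrg1, a secreted glycoprotein, all had negative log2 fold changes. Mt2 had 43.0, 56.2 and 83.7 TPM in HFD and 143, 212 and 194 TPM in LFD, with no overlap and a log2 fold change of -1.39 ± 0.24. Its edgeR adjusted p was 0.170, also the lowest value that any tested gene reached. Mt1 had a log2 fold change of -0.88 ± 0.27, with an adjusted p of 0.334.

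**Figure D5:**
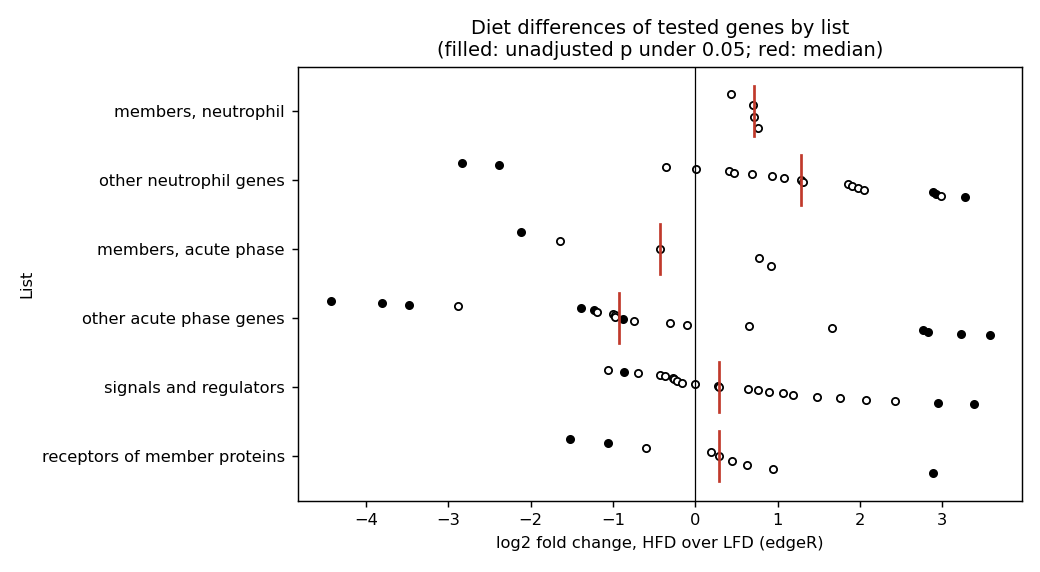
Log2 fold change, HFD over LFD (edgeR), of every tested gene in 6 lists, with filled points for an unadjusted p under 0.05 and a red line at the median of each list. The medians are 0.71 for the 4 neutrophil genes, 1.28 for 19 other neutrophil genes, -0.43 for the 5 acute phase genes and -0.93 for 20 other acute phase genes.

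A list of 27 signals and regulators held genes such as those of interleukin 6, interleukin 1, C/EBP and STAT3, and neutrophil-attracting chemokines. Of the 27, 23 were tested and 0 were called by edgeR. At an unadjusted p under 0.05 there were 2 higher, the cytokine gene Tnf and the neutrophil-attracting chemokine gene Cxcl2, and 1 lower, the transcription factor gene Cebpd, named after their values were seen. Over all tested genes 3.86% were higher and 6.62% lower at that limit, so these counts say little about the list. Its median log2 fold change was 0.29. Stat3, the transcription factor downstream of interleukin 6, had a log2 fold change of -0.22 ± 0.24 and an edgeR adjusted p of 0.844.

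Of 10 receptors of the proteins encoded by the 9 genes, 9 were tested and 0 were called by edgeR. Cd163, the macrophage receptor that takes up haptoglobin bound to haemoglobin, had 11.5, 33.8 and 13.4 TPM in HFD and 37.2, 82.8 and 78.6 TPM in LFD. The diets did not overlap, and its log2 fold change was -1.53 ± 0.39 with an edgeR adjusted p of 0.241. Slc22a17, a receptor for lipocalin 2, had 1.40, 2.17 and 1.64 TPM in HFD and 2.99, 4.43 and 5.62 TPM in LFD. Its log2 fold change was -1.06 ± 0.29, with an edgeR adjusted p of 0.282. Tlr4, a receptor for calprotectin, had a log2 fold change of 0.45 ± 0.30 and an edgeR adjusted p of 0.691, and Ager, another, was at most 0.780 TPM.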

How the data were processed

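Total RNA was depleted of ribosomal RNA before sequencing (single reads, 75 bases). Per the submitters' processing notes and the methods, the authors used Trimmomatic 0.36 for adapters and RSEM 1.3.0 on GRCm38.p4 with the Ensembl annotation. The authors deposited for each mouse an expected count per gene, which is not normalized and divides reads that match several genes, and a TPM value, scaled by gene length to a fixed total, and the intervals and posterior SDs of RSEM, listed here as signal values that are never negative.

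Expected counts were rounded to whole numbers, 17156991 to 21603487 per mouse. The test was that of edgeR 4.0.16 in R 4.3.3 (quasi-likelihood, TMM, filterByExpr, Benjamini-Hochberg adjustment). Log2 CPM (counts scaled by library size) used a prior count of 2. DESeq2 1.42.0 and, for log2(TPM + 1) and log2(TPM + 0.1), limma 3.58.1 were alternatives, beside RLE size factors, other filters, robust fitting, mitochondrial genes left out, the replicate block and each mouse left out. Mitochondrially encoded genes took 3.87% to 22.7% of counts, and TMM factors were 0.745 to 1.21. Counts were compared within each diet to look for a library deposited more than once, and none was found. The fits were tested on simulated data.

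Diets and replicate numbers came from the labels. Deviations from the diet mean correlated across genes at r = 0.229 to 0.522 in the 3 same-numbered pairs, so the numbers were treated as pairing the mice in the blocked fit, although no source says that the mice were matched. The 9 genes, the lists and the tests were chosen with earlier results of these data known. All 9 genes are named. From each list, the 4 genes with the highest mean TPM, called genes and direct partners of the 9 could be named, together with the 3 genes nearest in profile to each of the 9. Not every gene allowed by this rule is printed, and genes outside it are marked as named after their values were seen. Positions are from GENCODE M21 (GRCm38) and promoters from RefSeq.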

Additional observations from a re-analysis of the deposited data

How the results depend on the processing

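No alternative called any of the 9 genes. Over all genes, edgeR called 0 and DESeq2 412. With the replicate number as a block, 0 genes were called, 184 had an adjusted p under 0.05 and 3094 an unadjusted p under 0.05 (1851 without the block). The blocked fit changed no call of the 9 genes, and Serpina3n then had a log2 fold change of -2.28 and an adjusted p of 0.113. The log2 fold changes of 6 genes turned when HFD replicate 3 was left out, and over each mouse left out in turn they ranged from -0.58 to 2.13 (S100a8), -1.16 to 2.15 (S100a9), -0.58 to 1.15 (Retnlg), -0.033 to 1.41 (Csf3r), -1.96 to 1.40 (Saa3) and -0.59 to 1.96 (Lcn2), each lowest value being the one without that mouse. S100a9 also turned without LFD replicate 1, to -0.12, and Saa3 on log2(TPM + 1) and log2(TPM + 0.1), to -0.31 on each. With 1 mouse left out, the median log2 fold change lay between -0.58 and 1.77 for the neutrophil genes and between -1.20 and -0.17 for the acute phase genes. Where 1 diet was left with 2 mice, the spread was pooled over both diets. Hp, Orm1 and Serpina3n kept their direction under every alternative, and the lowest adjusted p of the 9 genes was 0.0450, for Serpina3n with DESeq2. The limit of at least 10 counts in every sample left Retnlg untested. Counting error limits Retnlg and Ly6g, which rest on few reads, and 3 mice a diet limit all comparisons.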
